A study of Mus musculus with 11 samples.

Results

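Mycl, which encodes the transcription factor L-MYC, and Ptpre, which encodes the receptor-type tyrosine phosphatase PTP epsilon, were 2 of 4 genes called higher in lateral habenula tissue of mice with antibody-induced arthritis. They are described here in every library, beside their closest relatives: the other MYC family genes Myc and Mycn, and the sister phosphatase gene Ptpra. The 5 genes were found by symbol among the 54532 genes of the count table, and all 5 had enough counts to be tested, as had 19619 genes in all. Mycl and Ptpre were chosen from the comparison of arthritis with control, so their values in it are a description and carry no test.

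The MYC proteins are basic helix-loop-helix leucine zipper factors that pair with MAX and bind E-box DNA. MXD and MNT proteins compete with them for MAX. L-MYC is the least studied of the family and a weaker activator than c-MYC or N-MYC, and in mice it is known from developing neural tissue and from dendritic cells. PTP epsilon and PTP alpha are a closely related pair of phosphatases with tandem catalytic domains, and both remove the inhibitory phosphate from SRC family kinases. PTP epsilon is also made as a cytosolic form from its own start site, known from blood-lineage cells such as macrophages, while the receptor form is known to dephosphorylate voltage-gated potassium channels.

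The tissue came from 3-month-old BALB/c mice of both sexes. In the collagen antibody-induced arthritis (CAIA) groups, with 3 female and 3 male libraries, mice were injected with a mix of 5 anti-collagen antibody clones (type II collagen, 50 mg/kg) and, 3 days later, with lipopolysaccharide (LPS, 1 mg/kg). The control groups, with 3 female and 2 male libraries, received vehicle, so antibody, LPS and joint disease cannot be told apart. The lateral habenula, a small nucleus above the thalamus that signals aversive outcomes, was dissected from brain slices and total RNA was sequenced. The labels do not tie each library to an animal of its own, and the spread that p-values rest on may therefore be technical.

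Library totals ran from 25317306 to 29565006 counts. Lateral habenula markers were present in every library, with a mean level of 7.32 to 7.53 log2 CPM (counts scaled to library size with TMM factors) in CAIA and 7.25 to 7.46 in controls, and thalamus and medial habenula markers were present too. All 14 choroid plexus markers had a negative fold change in CAIA and 7 were called lower in edgeR, as were 113 (0.576%) of all genes tested, with a mean level of 2.01 to 4.78 log2 CPM in CAIA and 5.23 to 6.12 in controls. Border macrophage markers, of which 5 of 6 had enough counts to be tested, had a positive fold change in 5 of 5. None was called in edgeR, and 3 had an unadjusted p under 0.05, as had 1248 of the 19619 genes. Their mean level was 0.988 to 1.45 log2 CPM in CAIA and 0.357 to 0.980 in controls, which did not overlap, while their summed level was 12.4 to 17.5 CPM in CAIA and 8.24 to 13.9 CPM in controls, which did. Of 8 meningeal fibroblast markers, 7 had a negative fold change and 2 were called lower. Hippocampus and cortex markers, 10 genes of neighbouring tissue, were present at 3.58 to 4.59 log2 CPM in CAIA and 3.03 to 5.21 in controls. Of 12 microglia markers, 11 had a positive fold change over both sexes, as had 50.0% of all genes tested, with a median of 0.06. Of these markers 1 had an unadjusted p under 0.05 in edgeR and none was called. Their mean level overlapped between the treatments, at 3.87 to 4.01 log2 CPM in CAIA and 3.73 to 4.13 in controls.

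Mycl lies on chromosome 4 (122995652 to 123002485, plus strand) and Ptpre on chromosome 7 (135537481 to 135686293, plus strand) in GENCODE M21 on GRCm38. Their relatives lie on other chromosomes, Myc on 15 (61985391 to 61990374, plus strand), Mycn on 12 (12936093 to 12941914, minus strand) and Ptpra on 2 (130450278 to 130556124, plus strand). Ptpre has 8 annotated transcripts that begin far apart. The transcripts that begin at 135537824 and 135605828 can encode 699 codons, and one that begins inside the gene at 135651937 encodes 642 codons. The deposited counts add all of these together, so the receptor and cytosolic forms cannot be told apart in the values below. The regions around the start sites of Mycl and Ptpre, 250 bases before to 50 bases after each start, are printed here because they are the DNA at which transcription of these genes begins. Sequences are from RefSeq on GRCm38.p6, where 4 of the 5 genes had an entry, and capitals mark the motifs named below. The Ptpre region called downstream is that at 135605828. The start at 135651937, of the transcript with 642 codons, had no entry, so its region is not printed.
Mycl, chr4:122995681-122995980, + strand: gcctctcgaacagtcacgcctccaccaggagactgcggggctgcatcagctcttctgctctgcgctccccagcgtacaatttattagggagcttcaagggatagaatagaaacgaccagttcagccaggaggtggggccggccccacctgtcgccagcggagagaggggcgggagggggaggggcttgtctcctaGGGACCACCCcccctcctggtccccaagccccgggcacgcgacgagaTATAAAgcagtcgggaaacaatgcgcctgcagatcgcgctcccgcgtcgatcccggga
Ptpre upstream start, chr7:135537574-135537873, + strand: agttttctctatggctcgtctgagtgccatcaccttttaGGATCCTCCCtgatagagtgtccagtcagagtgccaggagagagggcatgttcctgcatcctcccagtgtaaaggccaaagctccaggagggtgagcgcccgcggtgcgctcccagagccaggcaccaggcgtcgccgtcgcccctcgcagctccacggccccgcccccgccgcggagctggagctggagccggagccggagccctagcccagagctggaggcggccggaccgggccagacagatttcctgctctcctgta
Ptpre middle start, chr7:135593231-135593530, + strand: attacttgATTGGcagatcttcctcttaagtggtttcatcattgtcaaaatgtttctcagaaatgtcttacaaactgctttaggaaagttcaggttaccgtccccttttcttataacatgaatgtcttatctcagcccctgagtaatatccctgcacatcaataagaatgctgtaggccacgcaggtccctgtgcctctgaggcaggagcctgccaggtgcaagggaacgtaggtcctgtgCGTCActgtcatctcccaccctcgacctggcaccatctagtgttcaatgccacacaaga
Ptpre downstream start, chr7:135605578-135605877, + strand: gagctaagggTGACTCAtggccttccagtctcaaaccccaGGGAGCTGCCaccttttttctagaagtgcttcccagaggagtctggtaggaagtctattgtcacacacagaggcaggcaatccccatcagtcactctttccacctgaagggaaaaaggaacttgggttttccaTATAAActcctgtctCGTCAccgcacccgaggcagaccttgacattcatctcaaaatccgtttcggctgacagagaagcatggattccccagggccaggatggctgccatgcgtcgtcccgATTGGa

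The motifs searched on both strands were the E-box CACGTG, the cAMP-response element TGACGTCA and its half-site TGACG, the AP-1 site TGANTCA, the glucocorticoid receptor half-site AGAACA, the FOXO site GTAAACA, the NF-kB site (GGGA, any 4 bases, then CC), the CCAAT box and the TATA box TATAAA. Every full TGACGTCA match also holds a half-site match, and a match is a description of letters, not a site of binding. The Mycl region held a TATA box from -8 to -3 relative to the RefSeq start and an NF-kB match from -55 to -46. A TATA box occurs in 13.6% and an NF-kB match in 20.8% of 32544 distinct start regions of the same length. The upstream Ptpre start had an NF-kB match alone, while the middle start had a CCAAT box and a half-site TGACG, found in 37.4% and 20.9% of start regions. The downstream Ptpre start, at 135605828, held an AP-1 site, found in 7.79% of start regions. It also held a TATA box, an NF-kB match, a half-site TGACG and a CCAAT box. None of these 4 regions held the E-box, which 7.17% of start regions hold, or the letters AGAACA, which 18.9% hold. The Mycl region and the upstream Ptpre region were rich in G and C, at 64.0% and 65.7%, above 79.6% and 82.9% of all start regions. The middle Ptpre region, at 47.0%, was above 28.2% of them.

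The Mycl level separated the treatments, with all 6 CAIA libraries above all 5 controls. In female CAIA libraries it stood at 19.2, 18.9 and 15.3 CPM, against 12.8, 11.6 and 14.0 CPM in female controls. In male CAIA libraries it stood at 16.6, 21.5 and 19.6 CPM, against 12.5 and 11.8 CPM in male controls. The nearest libraries across the treatments were both female, at 15.3 CPM in CAIA replicate 3 and 14.0 CPM in control replicate 3. Over both sexes Mycl averaged 18.5 ± 2.23 CPM in CAIA (SD, n = 6) and 12.5 ± 0.97 CPM in controls (SD, n = 5). The log2 fold change was 0.57 ± 0.10 (SE) over both sexes, or 1.48-fold, with 0.48 ± 0.13 in females and 0.66 ± 0.14 in males. Of all genes tested, 33 (0.168%) had all CAIA libraries above all controls and 199 (1.01%) all below. Mycl was the 1 member of the 5 in the first of these counts, but this contrast chose it, so nothing is read from that.

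Ptpre did not separate the treatments in females and did in males. In female CAIA libraries it stood at 18.6, 16.0 and 14.9 CPM, against 16.5, 14.3 and 16.1 CPM in female controls. These groups overlapped. In male CAIA libraries it stood at 19.9, 20.4 and 19.4 CPM, against 10.7 and 12.5 CPM in male controls. The 3 male CAIA libraries were the highest of all 11 and the 2 male controls the lowest, and the 6 female libraries lay between them. Of all genes tested, 1801 (9.18%) had all male CAIA libraries above both male controls and 1669 (8.51%) all below, against 996 (5.08%) above and 1253 (6.39%) below in females. Among the 5 genes, Mycl, Ptpre, Mycn and Ptpra were above in males and Mycl alone in females. The mean level of the hippocampus and cortex markers was 4.42, 4.59 and 4.14 log2 CPM in male CAIA, against 3.03 and 3.18 in male controls, and 4.34, 3.95 and 3.58 in female CAIA, against 5.21, 3.51 and 4.34 in female controls. On this mean the male groups did not overlap and the female groups did, as for Ptpre. The summed level of these markers overlapped in males too, with CAIA replicate 3 at 710.7 CPM and control replicate 3 at 731.4 CPM. The mean of the astrocyte markers lay apart in males, at 7.81, 7.81 and 7.89 log2 CPM in male CAIA, against 7.66 and 7.72 in male controls. Pericyte and smooth muscle markers lay apart in males too, but lower in CAIA, at 3.88 to 3.94 against 4.11 in both controls. In females both sets overlapped. The part of these markers in the Ptpre values was not tested. The log2 fold change was 0.43 ± 0.09 over both sexes, an average of 0.08 ± 0.11 in females and 0.78 ± 0.13 in males, which is 1.72-fold in males. In males it rests on 2 control libraries, and it was 0.66 without control replicate 1 and 0.91 without control replicate 3. In females the value was -0.00912 without CAIA replicate 1.

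**Figure D1:**
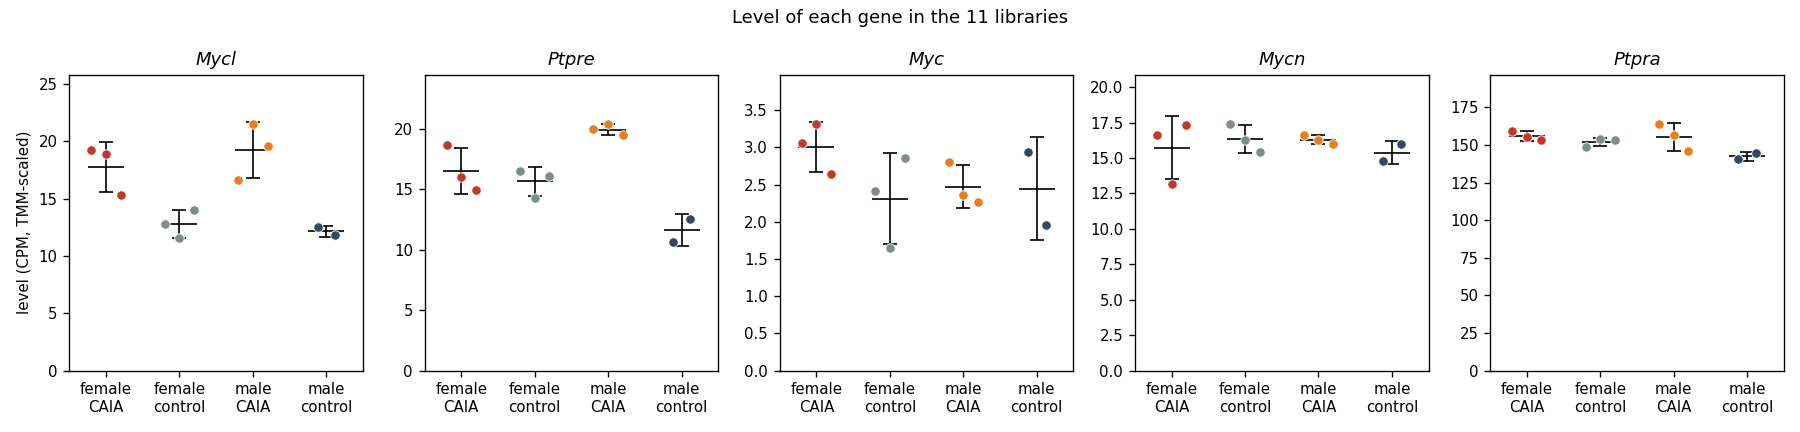
Level of Mycl, Ptpre, Myc, Mycn and Ptpra in CPM on vertical axes that start at 0, with a point for each library, a bar at the group mean and whiskers for the SD, in 3 female CAIA, 3 female control, 3 male CAIA and 2 male control libraries. Mycl is higher in all CAIA libraries, while for Ptpre the male groups stand apart and the female groups overlap.

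The quasi-likelihood test of edgeR called 117 genes (0.596%) over both sexes at an adjusted p under 0.05, 4 of them (0.0204%) higher and 113 (0.576%) lower in CAIA. Mycl and Ptpre are 2 of those 4 by the way they were chosen, and Myc, Mycn and Ptpra were not called. In females 51 genes (0.26%) were called, 1 higher (0.0051%) and 50 lower (0.255%), and in males 0 (0%), with no member among them. Unadjusted p-values under 0.05 in edgeR numbered 1104 in males, and DESeq2 called 71 genes there. Mycl and Ptpre were among the 71, but these libraries were used to choose them, so nothing is read from that. At the edge of the choice, Ptpre had an adjusted p of 0.0357 in edgeR. The next higher gene outside it, Cebpd, named here only to show that edge, had 0.0516 with a log2 fold change of 0.74 ± 0.16. With 1 of the 11 libraries left out in turn, Mycl stayed inside the threshold in 8 fits and Ptpre in 2. Mycl fell outside without female CAIA replicate 1 or 2 or male control replicate 1, and its log2 fold change over these 11 fits was 0.52 to 0.62. Ptpre stayed inside without female control replicate 1 and without male control replicate 3, and its fold change ranged from 0.37 to 0.50. With the choroid plexus marker level as a covariate, whose values do not overlap between the treatments, Mycl was at 0.98 ± 0.22 and Ptpre at 0.47 ± 0.22. Both genes fell outside the threshold there. The mean border macrophage level given above separated the treatments, as the Mycl level did, and the summed level did not. Dendritic cell markers, of which 3 of 6 were tested, overlapped, with a mean level of 1.91 to 2.30 log2 CPM in CAIA and 1.97 to 2.45 in controls. Those tested averaged 15.1, 10.4 and 0.517 CPM, and the others had 8, 41 and 56 counts over the 11 libraries. The overlap thus rests on few well-counted genes and cannot decide whether dendritic cells differed. The part of these markers in the values of Mycl and Ptpre was not tested. In bulk tissue, more cells of a type and more RNA per cell cannot be told apart.

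Whether the effect of CAIA differed between the sexes is a contrast other than the one that chose the genes, though it rests on the same 11 libraries. The spread estimated for each gene entered that choice and also sets the SE, interval and p here. For Mycl and Ptpre these are therefore not independent of the choice. For Ptpre the female effect minus the male effect was -0.70 ± 0.17 on the log2 scale, with a 95% interval of -1.07 to -0.34. Several marker sets leaned to 1 side in the same contrast, where 48.0% of all genes tested were positive. All 10 hippocampus and cortex markers were negative, with a median of -1.69 and 4 at an unadjusted p under 0.05 in edgeR. Of 14 choroid plexus markers 13 were negative (median -1.76, 5 under that p), as were all 8 meningeal fibroblast markers (median -0.50, 2 under it). All 8 medial habenula and all 5 tested ependyma markers were positive. None of these markers was called, and their part in the Ptpre value was not tested. For Ptpre, the unadjusted p of 0.000959 in edgeR placed it at rank 5 of 19619 genes, but its adjusted p was 0.978, so it did not pass. No gene passed there (0% of those tested), with 807 genes at an unadjusted p under 0.05 in edgeR and 2 genes called by DESeq2, neither of them Ptpre. Over all alternatives the difference for Ptpre stayed between -0.83 and -0.59, and its adjusted p between 0.0654 and 1.00. For Mycl the difference was -0.19 ± 0.19 (95% interval -0.60 to 0.22, edgeR adjusted p = 0.978). Over both treatments, female against male, Ptpre was at 0.08 ± 0.08 (edgeR adjusted p = 0.861) and Mycl at -0.02 ± 0.10 (adjusted p = 0.971). None of the 5 genes passed in that comparison, where 9 genes (0.0459%) did, 4 higher in females (0.0204%) and 5 lower (0.0255%), and none had an unadjusted p under 0.05 in edgeR or a call in DESeq2.

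**Figure D2:**
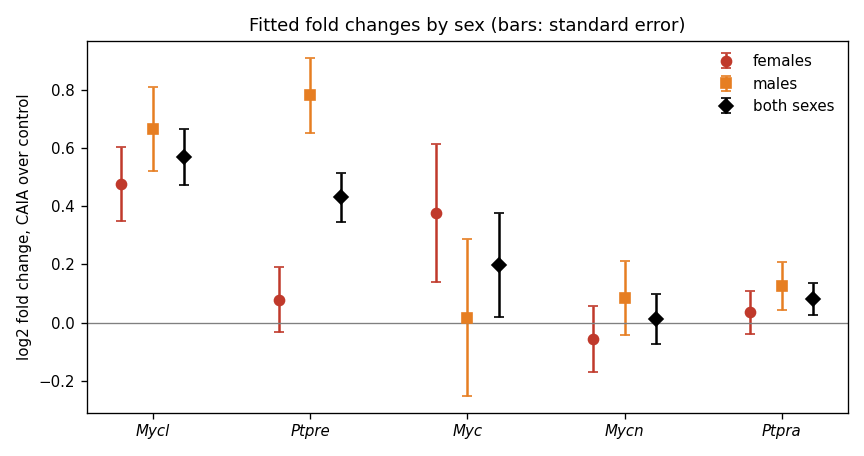
Fitted log2 fold change of CAIA over control on the vertical axis for each of the 5 genes, in females, in males and over both sexes, with bars for the SE. Ptpre is at 0.08 in females and 0.78 in males, and Mycl at 0.48 and 0.66.

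Myc and Mycn, the best-known family members, encode drivers of cell growth and of neural progenitor division. Myc had the fewest counts of the 5 genes. It stood at 3.06, 3.31 and 2.64 CPM in female CAIA, against 2.41, 1.65 and 2.86 CPM in female controls. In males it stood at 2.80, 2.36 and 2.26 CPM in CAIA, against 2.94 and 1.95 CPM in controls. The groups overlapped in both sexes. The log2 fold change over both sexes was 0.20 ± 0.18 (95% interval -0.19 to 0.58, edgeR adjusted p = 0.935). With 42 to 95 counts per library, the interval does not exclude a rise of the size seen for Mycl. Its fitted value was 0.38 ± 0.24 in females and 0.02 ± 0.27 in males.

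Mycn overlapped between the treatments in females, and in males the lowest CAIA library, at 15.99 CPM, was just above the highest control, at 15.96 CPM. It averaged 15.7 ± 2.22 CPM in female CAIA (SD, n = 3) and 16.4 ± 1.00 CPM in female controls (n = 3). In males it averaged 16.3 ± 0.33 CPM in CAIA (n = 3) and 15.4 ± 0.82 CPM in controls (n = 2). The log2 fold change over both sexes was 0.01 ± 0.08 (95% interval -0.17 to 0.19, edgeR adjusted p = 0.992). That interval lies below the estimate of 0.57 for Mycl, on similar counts (378 to 504 per library for Mycn and 295 to 548 for Mycl). Mycl was chosen by its value in this contrast, so setting the 2 genes side by side is a description only. With 1 library left out, the Mycn fold change ranged from -0.03 to 0.06. It was below 0 without female CAIA replicate 1 or 3, female control replicate 3 or male control replicate 1.

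The count of Mycl divided by that of Mycn within the same library does not depend on how libraries are scaled. It was 1.15, 1.43 and 0.88 in female CAIA, against 0.73, 0.71 and 0.91 in female controls. In males it was 1.00, 1.32 and 1.23 in CAIA, against 0.84 and 0.74 in controls. Female CAIA replicate 3 was below female control replicate 3 on this ratio, and the male groups did not overlap. Per kilobase of annotated exon, Mycl made up 37.81% to 47.9% of the summed MYC family level in CAIA libraries and 33.9% to 37.77% in controls.

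Ptpra, whose product activates SRC and FYN kinases in neurons, had the highest level per kilobase of the 5 genes and the smallest spread within groups. It averaged 155.9 ± 3.28 CPM in female CAIA (SD, n = 3) and 152.1 ± 2.83 CPM in female controls (n = 3). In males it averaged 155.5 ± 9.15 CPM in CAIA (n = 3) and 142.4 ± 2.79 CPM in controls (n = 2). The female groups overlapped, and in males the lowest CAIA library, at 145.7 CPM, was just above the highest control, at 144.4 CPM. The log2 fold change over both sexes was 0.08 ± 0.06 (95% interval -0.04 to 0.20, edgeR adjusted p = 0.892). For every 100 Ptpra counts, Ptpre had 11.7, 10.3 and 9.76 counts in female CAIA, against 11.1, 9.26 and 10.5 in female controls. In males it had 12.2, 12.99 and 13.3 in CAIA, against 7.58 and 8.67 in controls. As with the scaled levels, the female groups overlapped on this ratio and the male groups did not.

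**Figure D3:**
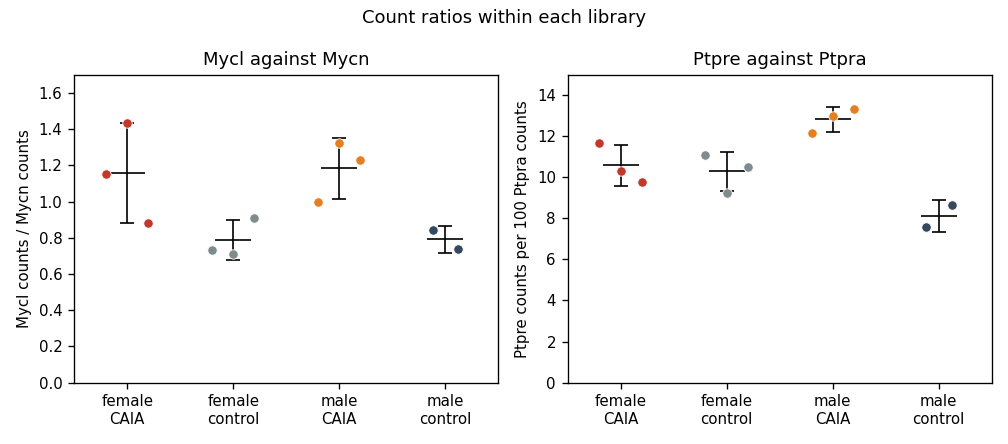
Count ratios within each library on vertical axes that start at 0, Mycl over Mycn at left and Ptpre per 100 Ptpra at right, with group means and SD. The Ptpre ratio is 12.2 to 13.3 in male CAIA and 7.58 to 8.67 in male controls, with all female libraries at 9.26 to 11.7.

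Levels of different genes were compared per kilobase of annotated exon, with each exonic base counted once over all transcripts of a gene. That length can exceed the length of any single transcript. The order over all 11 libraries was Ptpra at 14.0 ± 0.64, Mycn at 4.85 ± 0.36, Mycl at 3.91 ± 0.88, Ptpre at 1.60 ± 0.31 and Myc at 0.945 ± 0.183 CPM per kilobase (SD, n = 11). In CAIA, Mycl at 4.59 ± 0.55 and Mycn at 4.86 ± 0.44 CPM per kilobase overlapped (n = 6). In controls, Mycl at 2.87 to 3.48 CPM per kilobase lay below Mycn at 4.49 to 5.28 (n = 5). Ptpre at 1.04 to 2.00 and Myc at 0.607 to 1.22 CPM per kilobase also overlapped over the 11 libraries. Ptpra lay above Mycn, and Mycl above Ptpre, in all libraries. Libraries of 1 group differed from each other by 11.7% for Mycl, 8.99% for Ptpre, 9.17% for Mycn, 21.9% for Myc and 3.65% for Ptpra (SD of log2 CPM about the group means, as a percent). Counting error alone would give 4.82%, 4.75%, 4.80%, 11.9% and 1.55%.

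Whether Mycl and Ptpre vary together among libraries of the same group was tested apart from the treatments, and no pair passed. The deviations of their log2 CPM from the group means had a Pearson r of 0.47 and a Spearman rho of 0.43 over 11 libraries (exact permutation p within groups, two-sided, 0.220 and 0.257, adjusted 0.278 and 0.301 over the 4 pairs tested). Without the 2 libraries farthest from the median of Mycl, r was 0.37. For Mycl with Myc, r was 0.41 and rho 0.44 (exact permutation p = 0.204 and 0.211, adjusted 0.278 and 0.301). For Mycl with Mycn, r was -0.47 and rho -0.53 (exact permutation p = 0.278 and 0.171, adjusted 0.278 and 0.301). For Ptpre with Ptpra, r was 0.31 and rho 0.37 (exact permutation p = 0.197 and 0.301, adjusted 0.278 and 0.301). Without the 2 farthest libraries these values of r were 0.68, -0.26 and 0.14.

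Genes whose deviations were most like those of Mycl over the 11 libraries were Gm4864, Gorab, Fgfr1, Matn2 and Gstm2, with r between 0.936 and 0.959. Fgfr1, a fibroblast growth factor receptor gene, was at 80.5 ± 8.15 CPM in CAIA and 80.7 ± 12.1 CPM in controls. Those most like Ptpre were Itpr3, Tmod4, Gm43457, Gm15246 and Sycp2, with r between 0.912 and 0.976. Itpr3, an inositol trisphosphate receptor gene, was at 13.9 ± 1.49 CPM in CAIA and 13.6 ± 1.40 CPM in controls (SD, n = 6 and 5). These were the highest of 15555 genes ranked by r, of which 1% exceeded 0.795 for Mycl and 0.802 for Ptpre, so such values are a ranking only. None of these 10 genes passed in CAIA against control over both sexes in edgeR (lowest adjusted p = 0.121, for Gstm2, a glutathione transferase gene at -0.83 ± 0.21), and Gstm2 had a negative value while that of Mycl was positive.

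Genes beside the 5 were read in the same fit. Mfsd2a, a lysophospholipid transporter gene of brain endothelium that lies 34464 bases from Mycl on the opposite strand, was at 0.42 ± 0.12 (log2 fold change over both sexes, edgeR adjusted p = 0.247). Trit1, a tRNA-modifying enzyme gene 14112 bases from Mycl on its other side, was at 0.12 ± 0.10 (adjusted p = 0.927). Mki67, the proliferation marker gene 3491 bases beyond Ptpre, had 145 counts over the 6 CAIA libraries and 79 over the 5 controls, and was at 0.87 ± 0.36 (adjusted p = 0.689). On the far side of Ptpre, the non-coding gene Gm36356 was at -0.21 ± 0.34 (adjusted p = 0.967). An antisense gene, 5830432E09Rik, shares 209 exonic bases with Ptpre but had only 10 counts over the CAIA libraries and 8 over the controls. Mir1962, inside Ptpre, had 0 counts. The non-coding RNA gene Pvt1 beside Myc was at 0.28 ± 0.13 (adjusted p = 0.781) and Fam84b on the other side at -0.12 ± 0.12 (adjusted p = 0.941). Beside Mycn, Ddx1 was at 0.01 ± 0.07 and Fam49a at 0.14 ± 0.07 (adjusted p = 0.991 and 0.850). Beside Ptpra, Mrps26 was at -0.02 ± 0.08 and Vps16 at 0.03 ± 0.06 (adjusted p = 0.990 and 0.967), and the antisense gene 4930473A02Rik, which shares 327 exonic bases with it, was at 0.30 ± 0.28 (adjusted p = 0.935). Within Ptpra, 9530056E24Rik had 18 counts in CAIA and 29 in controls, and Gm23876 had 0 and 2, too few to test. Whether counting used strand is not given in the sources used here.

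No partner or rival of the MYC proteins passed the test. Of 9 tested genes of the MAX and MLX network, 4 had a positive and 5 a negative fold change over both sexes, with a median of -0.01, beside 0.00017 for all genes tested. None passed in edgeR or DESeq2, and none had an unadjusted p under 0.05. Mga, a MAX-binding repressor gene, was at 0.15 ± 0.10, Mnt at -0.08 ± 0.06, Mxd4 at 0.11 ± 0.08 and Mxd1 at 0.08 ± 0.07 (edgeR adjusted p = 0.898, 0.910, 0.918 and 0.927). Of 16 genes for MYC cofactors and turnover, 9 were positive and 7 negative with a median of 0.01, and none passed in either tool. Pim1, a kinase gene, was at -0.28 ± 0.10 (edgeR adjusted p = 0.519), the 1 gene of this list with an unadjusted p under 0.05. Ep400 was at 0.11 ± 0.08, Skp2 at 0.13 ± 0.11 and Ruvbl2 at -0.07 ± 0.07 (adjusted p = 0.892, 0.927 and 0.940).

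The MYC target genes, which serve ribosome assembly, nucleotide synthesis and glycolysis, had as many positive as negative values to within 1 gene. Of 47 tested, 24 had a positive and 23 a negative fold change with a median of 0.01, and none passed in edgeR or DESeq2. Ccnd2, the cyclin D2 gene, was at -0.34 ± 0.15 (edgeR adjusted p = 0.779), with 18.4 ± 2.70 CPM in CAIA and 25.1 ± 8.75 CPM in controls, and was the 1 target with an unadjusted p under 0.05. The hexokinase gene Hk2 was at 0.35 ± 0.20, Wdr43 at 0.11 ± 0.08 and Imp4 at 0.10 ± 0.07, and none of these passed.

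Among tyrosine phosphatase genes other than Ptpre and Ptpra, 19 receptor-type genes were tested. Over both sexes 12 of these were positive and 7 negative with a median of 0.05, and none passed in edgeR (smallest adjusted p = 0.810) or DESeq2. Of all 21 receptor-type genes, Ptpre and Ptpra included, 14 were positive in males and 9 in females. In the sex difference of the effect 4 were positive and 17 negative, with a median of -0.10, beside -0.01 for all genes tested. There, 3 had an unadjusted p under 0.05 in edgeR, Ptpre among them, and none was called. Over both sexes Ptpro was at 0.16 ± 0.08, Ptprz1, an abundant glial gene, at 0.15 ± 0.08 and Ptpru at -0.13 ± 0.08. Of 16 non-receptor genes, 6 were positive and 10 negative with a median of -0.02, and none passed in either tool. Ptpn14 was at -0.43 ± 0.13 (edgeR adjusted p = 0.304), the 1 such gene with an unadjusted p under 0.05, while Ptpn13 was at -0.14 ± 0.08, Ptpn9 at 0.09 ± 0.05 and Ptpn12 at 0.13 ± 0.09.

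Of 17 substrates and partners of the phosphatases, 9 were positive and 8 negative with a median of 0.01, and none passed in edgeR or DESeq2. The potassium channel gene Kcna5 was at 0.54 ± 0.23 (edgeR adjusted p = 0.731), with 3.71 ± 1.40 CPM in CAIA and 2.53 ± 0.24 CPM in controls, and was the 1 gene here with an unadjusted p under 0.05. The SRC family kinase gene Yes1 was at 0.18 ± 0.10 and the adhesion gene Cntn1, whose product partners PTP alpha, at 0.11 ± 0.07.

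The glucocorticoid response genes, a list chosen with their values in these libraries known, are set beside the pair. All 17 had a positive fold change over both sexes, as had 50.0% of all genes tested. Their median was 0.31, and 5 had an unadjusted p under 0.05, as had 1248 of the 19619 genes. None passed in edgeR, while DESeq2 called 3, Ddit4, Fkbp5 and Errfi1, among 222 genes in all. Errfi1 was at 0.35 ± 0.08, Ddit4 at 0.44 ± 0.10, Fkbp5 at 0.63 ± 0.16 and Tsc22d3 at 0.40 ± 0.12 (edgeR adjusted p = 0.0924, 0.101, 0.172 and 0.339). These comparisons share all their libraries with that of Mycl and Ptpre, so the values stand side by side and no relation between them was tested.

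**Figure D4:**
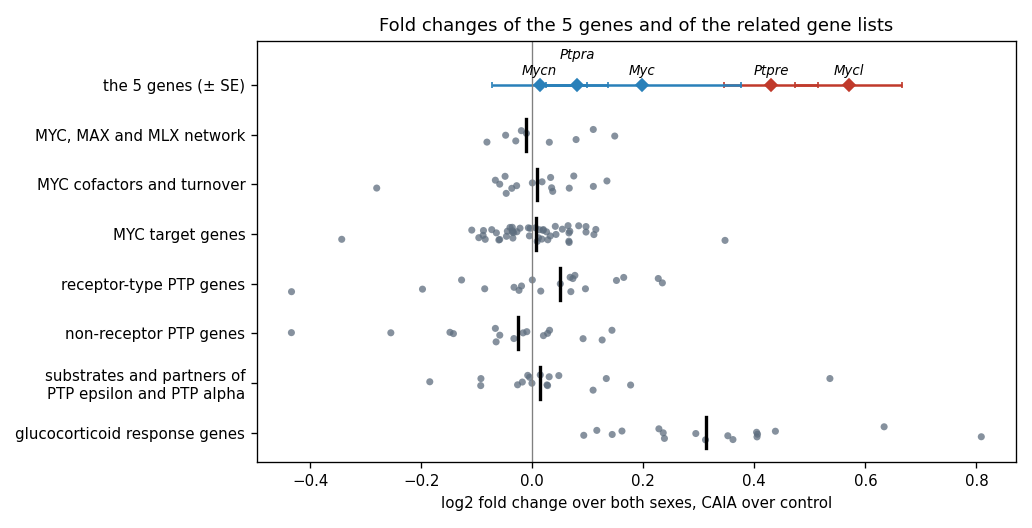
Log2 fold change over both sexes, CAIA over control, on the horizontal axis, with the 5 genes and their SE in the top row (Mycl and Ptpre in red, the relatives in blue) and the related gene lists below, a point per tested gene and a bar at the median. Ptpre and Ptpra are left out of the list points. Medians of the MYC and phosphatase lists lie from -0.02 to 0.05, and that of the glucocorticoid response genes at 0.31.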

How the data were processed

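Total RNA of 11 lateral habenula libraries was sequenced, and the deposited values are read counts for each gene. The submitters' processing notes name GRCm38 as the build, and as tools featureCounts (1.5.0-p3), HISAT2 (2.0.5) and cutadapt (1.9.1). Neither strand setting nor annotation release is given in the sources used here. Counts were used as deposited.

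Groups came from the sample titles. Genes were filtered with filterByExpr by group, scaled with TMM factors and fitted with 4 group means with R 4.3.3 and edgeR 4.0.16 (robust glmQLFit, then glmQLFTest, leaving 7 residual degrees of freedom), with Benjamini-Hochberg adjustment over the 19619 genes tested. Each standard error is the size of the log2 fold change over the root of its F statistic. Log2 CPM used a prior count of 2. The fit was tested on simulated data, and the outcome is not reported here, so nothing is read from it. Depth was similar across libraries, and counting errors cover reads only.

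Coordinates and exon lengths came from GENCODE M21, to which 54409 of 54532 identifiers matched. The genes named beyond the 5 were the overlapping and nearest tested genes, up to 4 per list with the lowest p, and the 5 most like Mycl and Ptpre, of which 1 list gene is not reported here. Members and lists were chosen with earlier results of these data known. Alternatives were RLE size factors, DESeq2 1.42.0, no count filter, a replicate block, a choroid plexus covariate and each library left out. Figures used matplotlib 3.10.9.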

Additional observations from a re-analysis of the deposited data

Results flagged for a closer look

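Among the 6 CAIA libraries, Mycn in female replicate 2, at 13.2 CPM, stood far below the other CAIA libraries, which lay at 16.0 to 17.3 CPM. Its gap to the next library was 0.680 of the whole range, above Dixon's 95% critical value of 0.625 for 6 samples. The same library was the highest of the 6 for Myc, at 3.31 CPM. The check was run for 5 genes in CAIA (n = 6) and in controls (n = 5), and chance flags about 1 in 20 such groups.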

How the results depend on the processing

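The log2 fold changes of the 5 genes kept their sign over both sexes in every alternative, except Mycn, which was also at -0.09 with the choroid plexus covariate. Ptpre in females turned to -0.00912 without female CAIA replicate 1, and was at most 0.138 with a library left out. Counts of called genes moved more: over both sexes 117 became 222 with DESeq2, 470 without the count filter and 1 with the choroid plexus covariate. In females 51 became 171, 452 and 0, and in males 0 became 71, 423 and 1. For the sex difference of the effect 0 became 2 with DESeq2 and 316 without the filter, and between females and males 9 became 23 and 278. Of the 470 genes, 459 had also passed the filter, and the cause was not tested. With 1 library left out, counts ranged from 43 to 180 over both sexes, 0 to 104 in females, 0 to 142 in males and 7 to 23 for female against male. Over both sexes the count moved by more than 1.5 times without female CAIA replicates 1 (44), 2 (70) and 3 (43), male CAIA replicate 3 (56), female control replicate 2 (68) and male control replicates 1 (46) and 3 (180). With the covariate, list medians were 0.15 for the MAX and MLX network, -0.0273 for MYC cofactors, 0.0928 for non-receptor phosphatases, -0.0173 for substrates and 0.97 for glucocorticoid response genes. With 1 library left out, medians ranged from -0.0351 to 0.146 for the 21 receptor-type phosphatases, Ptpre and Ptpra included, and -0.0385 to 0.0393 for non-receptor phosphatases. The correlations kept their sign and none passed.

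Replicate numbers are only names here. Libraries with the same number had correlations of -0.29 to 0.17 in their deviations, and 2 of 11 libraries matched best with their own number. With the replicate block, 115 genes were called over both sexes, 45 in females, 1 in males, 0 for the difference between sexes and 8 between females and males. Ptpre was not among those called over both sexes with the block, and Mycl was. Myc has 42 to 95 counts per library, which limits what could be detected.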
